A study of Mus musculus with 12 samples.

Results

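The solute carrier genes are the genes whose mouse symbol starts with Slc and a number, and that name a membrane transporter of ions, nutrients, metabolites or vitamins. Genes were taken by that symbol after naming probes through their accessions, leaving out Slc40a1, Slc48a1 and Slc7a11. The array held 368 such genes on 473 probes. The members were selected on signal: a probe had to be well above background, as the scanner software calls it, on all 3 arrays of some genotype. Each gene was then represented by the brightest of its probes that passed, called its brightest probe below. This kept 250 genes, of which 249 had enough values to be tested among 23124 genes and transcripts in all. The measured signal thus chose the members and the probe of each, and a gene seen in 1 genotype only was kept because it is high there. Of the 119 genes on the array that were not tested, 55 were above background on no array.

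Female C57BL/6 mice of 8 to 9 weeks gave the cells: alveolar macrophages, which live in the airspaces of the lung and clear surfactant and particles, were washed out by lavage and sorted by flow cytometry. The 4 genotypes were mice lacking both Bach1 and Bach2 (DKO), mice lacking Bach2 (Bach2 KO), mice lacking Bach1 (Bach1 KO) and wild type (WT), with 3 mice of each and 1 array per mouse. The labels name no promoter, cell type or treatment, so the knockouts are not limited to macrophages as far as the labels say. Bach1 and Bach2 are related DNA-binding repressors that pair with small Maf proteins. Levels are log2 signals with the array's 75th percentile set to 0, so 0 is the level of a fairly bright probe. Differences are on the log2 scale with their standard error, for n = 3 mice per genotype. In the limma fit a difference passed when its p, adjusted over all 23124 features by Benjamini-Hochberg, was under 0.05. Levels of different genes come from different probes and are not set against each other. The background rule passed 14 genes through a single genotype, with mean log2 levels of -4.85 to -2.14 there, while the 24 genes just outside it, above background on 2 arrays of a genotype, had levels of -5.98 to -3.97.

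Solute carriers fall into families that share a fold and mostly a substrate. Slc1, Slc6, Slc7, Slc36, Slc38 and Slc43 carry amino acids, Slc2 carries hexoses, Slc11, Slc30, Slc31, Slc39 and Slc41 carry metal ions, and Slc25 is the family of the inner mitochondrial membrane. In macrophages these proteins set what the cell can take up and what leaves the lysosome after engulfed material has been digested, and some of them, such as the metal transporter Slc11a1, are known for withholding nutrients from microbes held in phagosomes.

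Because both Bach proteins bind sites built on TGAGTCA, the promoters of the members were searched for it on both strands. RefSeq promoter windows of assembly GRCm38.p6, covering 250 bases before to 50 bases after a transcript start, matched 190 of the 249 members. The letters TGAGTCA stood in the windows of 8 members (4.2% of the 190), against 5.9% of all 27025 genes with a window. Among members that were higher in Bach2 KO than in WT, 43 had a window and 2 of those held the letters, and among members that were lower, 0 of 37 did. TGACNNNGC, the core of the longer antioxidant response and Maf recognition elements, stood in 37 members (19.5%), against 14% of all genes with a window. It stood beside TGAGTCA in 2 members, Slc7a1 and Slc49a4, and overlapped it in Slc49a4. TGATGNAA, the core of the composite sites of ATF4 and its partners, stood in 7 members (3.7%), against 4.5% of all genes with a window. A match of letters is a description of the window and not a site. Shown here are the windows of the 2 members with TGAGTCA that were higher in Bach2 KO (Slc7a1 and Slc25a13), of Slc37a2, which was higher in DKO, and of Slc9a3r2, which was lower in DKO. The window of Slc7a1 lies at chr5:148399855-148400154 with the match beginning at -123 relative to the transcript start, that of Slc25a13 at chr6:6217124-6217423 with the match at -130, that of Slc37a2 at chr9:37255689-37255988 with the match at -107, and that of Slc9a3r2 at chr17:24644908-24645207 with the match at -73. All are on the minus strand and are written from 5′ to 3′ along the gene with the letters of the match in capitals (TGACTCA is TGAGTCA read on the other strand).
Slc7a1: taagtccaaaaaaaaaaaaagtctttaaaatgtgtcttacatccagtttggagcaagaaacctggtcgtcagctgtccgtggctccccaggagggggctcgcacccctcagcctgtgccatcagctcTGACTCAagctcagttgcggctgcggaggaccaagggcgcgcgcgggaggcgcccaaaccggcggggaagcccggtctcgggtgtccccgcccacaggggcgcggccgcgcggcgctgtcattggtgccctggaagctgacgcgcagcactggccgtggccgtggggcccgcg
Slc25a13: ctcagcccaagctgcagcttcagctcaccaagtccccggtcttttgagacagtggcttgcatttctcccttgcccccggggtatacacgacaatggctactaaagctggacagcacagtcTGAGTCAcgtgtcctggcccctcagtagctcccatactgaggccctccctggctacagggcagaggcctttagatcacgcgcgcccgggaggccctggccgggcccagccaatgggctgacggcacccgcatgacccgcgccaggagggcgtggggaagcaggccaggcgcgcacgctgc
Slc37a2: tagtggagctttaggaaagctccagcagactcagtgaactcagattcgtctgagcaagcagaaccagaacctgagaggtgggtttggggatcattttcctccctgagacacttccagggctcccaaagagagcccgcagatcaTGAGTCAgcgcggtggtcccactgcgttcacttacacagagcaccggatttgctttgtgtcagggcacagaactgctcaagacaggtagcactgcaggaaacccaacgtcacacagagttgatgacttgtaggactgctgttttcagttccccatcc
Slc9a3r2: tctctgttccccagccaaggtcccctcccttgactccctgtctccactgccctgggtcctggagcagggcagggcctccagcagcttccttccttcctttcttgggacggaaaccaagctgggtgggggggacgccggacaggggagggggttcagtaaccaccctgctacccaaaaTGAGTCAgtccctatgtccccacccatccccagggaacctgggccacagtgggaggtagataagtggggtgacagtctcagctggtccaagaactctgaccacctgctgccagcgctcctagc

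The share of spots well above background ranged from 45.2% to 72.4% of 59305 per array, with none saturated. All WT and Bach1 KO arrays and 2 of the Bach2 KO arrays were on slide 1, Bach2 KO replicate 3 was on slide 2, and the DKO arrays were alone on slide 3, which was scanned on a later day. For DKO, genotype cannot be told apart from slide or day of scanning. The Bach1 probe had 2.59, 3.13 and 1.72 in DKO and 2.40, 2.55 and 2.53 in Bach1 KO, against 3.81, 4.12 and 3.88 in Bach2 KO and 3.72, 4.28 and 3.77 in WT. The brighter Bach2 probe had -5.46, -3.19 and -4.95 in DKO and -5.29, -3.72 and -5.29 in Bach2 KO (2 of 3 arrays above background), against -2.72, -2.51 and -3.47 in Bach1 KO and -2.42, -2.18 and -8.13 in WT, where replicate 3 was not above background. The labels do not place these probes against the deleted sequence, so neither checks a label. WT replicate 3, like every array, was left out in turn. All 9 markers of alveolar macrophages that are on the array were above background on all 12 arrays, with a summed level of 8.31 to 9.02 in DKO and 8.21 to 8.81 in Bach2 KO, against 9.34 to 9.99 in Bach1 KO and 9.65 to 9.996 in WT. The sum follows Chil3, Fabp4 and Itgax, and where Bach2 is intact also Marco, at means of 7.91 in WT and 8.02 in Bach1 KO. Marco averaged -0.19 in DKO and 2.62 in Bach2 KO. Siglecf averaged -2.56 in DKO and -0.60 in Bach2 KO, against 5.74 in WT. Monocyte markers (3 genes) summed to 3.48 to 3.93 in DKO and 1.96 to 2.36 in Bach2 KO, against -2.15 to -0.63 in WT. In DKO and Bach2 KO it was carried by F13a1, at means of 3.59 and 1.81, with 0 WT arrays above background. Ccr2 averaged 0.04 in DKO and -0.28 in Bach2 KO, against -1.56 in WT. Cx3cr1 barely differed, at -4.57 in DKO and -4.57 in Bach2 KO, against -4.79 in WT. Dendritic cell markers (4 genes) summed to 3.93 to 5.39 in DKO and 4.84 to 5.27 in Bach2 KO, against -1.88 to -0.20 in WT, while Xcr1 was above background on 0 of 3 arrays of Bach2 KO, of Bach1 KO and of WT. Ccr7 carried the sum, at means of 4.46 in DKO and 4.92 in Bach2 KO, against -2.29 in WT. Flt3 averaged 0.54 in DKO and 1.26 in Bach2 KO, against -3.76 in WT. Zbtb46 was not higher, at -3.27 in DKO and -3.15 in Bach2 KO, against -2.89 in WT. T cell markers (5 genes) summed to 2.72 to 3.42 in DKO and 3.59 to 3.81 in Bach2 KO, against 6.28 to 7.19 in WT. That sum follows Cd2, at means of 2.42 in DKO and 3.45 in Bach2 KO, against 6.70 in WT. Lck ran the other way, at 1.24 in DKO and 0.36 in Bach2 KO, against -3.26 in WT. So did Cd3g, at -1.85 in DKO and -2.41 in Bach2 KO, and Cd3d, at -2.22 in DKO and -3.71 in Bach2 KO, with 1 WT array above background for Cd3g and 0 for Cd3d. Erythroid and platelet markers (6 genes) summed to 4.78 to 5.41 in DKO and 3.84 to 5.01 in Bach2 KO, against 2.06 to 3.66 in WT. That sum follows the platelet gene Pf4, at means of 5.03 in DKO and 4.46 in Bach2 KO, against 2.66 in WT, while the globin gene Hba-a1 was at -3.63 in DKO and -3.39 in Bach2 KO, against -1.77 in WT. Epithelial markers (8 genes, with Sftpb above background on 0 of 3 arrays in DKO, Bach2 KO and WT) summed to 4.24 to 4.33 in DKO and 4.24 to 4.76 in Bach2 KO, against 4.79 to 5.03 in WT. Lamp3 carried the sum, at means of 4.21 in DKO and 4.46 in Bach2 KO, against 4.39 in WT. Epcam averaged -3.57 in DKO and -1.95 in Bach2 KO, against 2.78 in WT. Neutrophil markers (4 genes) summed to 6.11 to 6.33 in DKO and 5.61 to 5.99 in Bach2 KO, against 6.43 to 6.87 in WT. That sum follows Csf3r, while S100a9 averaged -1.13 in DKO and -3.22 in Bach2 KO, with 1 WT array above background. The sums for B cells, eosinophils and mast cells stayed below 0 on every array. These markers move with the loss of Bach2 beside every result below, and their part in the results was not tested. In bulk RNA of sorted cells fewer cells of a type and less RNA per cell cannot be told apart.

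Loss of Bach2 was accompanied by differences in both directions across the family. Against WT, Bach2 KO had 56 members higher and 47 lower of 249, and DKO had 51 higher and 46 lower. Over all features tested, 12.4% were higher and 24.7% lower in Bach2 KO than in WT, and 10.6% were higher and 16.6% lower in DKO than in WT. The members' shares were 22.5% higher and 18.9% lower in Bach2 KO, and 20.5% higher and 18.5% lower in DKO. Over the 13810 named genes alone, 15.1% were higher and 26.9% lower in Bach2 KO, and 12.7% and 19.2% in DKO. The members' share of lower calls in DKO was thus above that of all features and below that of named genes. The median difference of the members was -0.03 in Bach2 KO, against -0.30 over all features, and 0.00 in DKO, against -0.28 over all features. Part of the higher calls comes from genes that passed the background rule only where they are high. Among the 203 members measured on every array of Bach2 KO and WT, 33 were higher and 44 lower, and among the 204 measured on every array of DKO and WT, 29 were higher and 39 lower. The shares over all features measured on every array of the groups compared were not counted, here or for the substrate groups below. With a filter on all 12 arrays, 33 members were higher and 43 lower in Bach2 KO, beside 1689 and 5111 of 16632 features. In DKO that filter gave 29 members higher and 40 lower, beside 1313 and 3226 features. The split of the members also depends on how arrays are scaled. With quantile normalization it was 68 higher and 34 lower in Bach2 KO, and with no scaling it was 80 higher and 14 lower in Bach2 KO and 62 higher and 18 lower in DKO. The median of all features moved with it, to -0.13 and 0.39 in Bach2 KO under those settings and to 0.16 in DKO without scaling. Over all features, quantile normalization gave 3625 higher and 4213 lower in Bach2 KO. Without scaling, 4778 features were higher and 2165 lower in Bach2 KO, and 3138 were higher and 1844 lower in DKO.

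**Figure D1:**
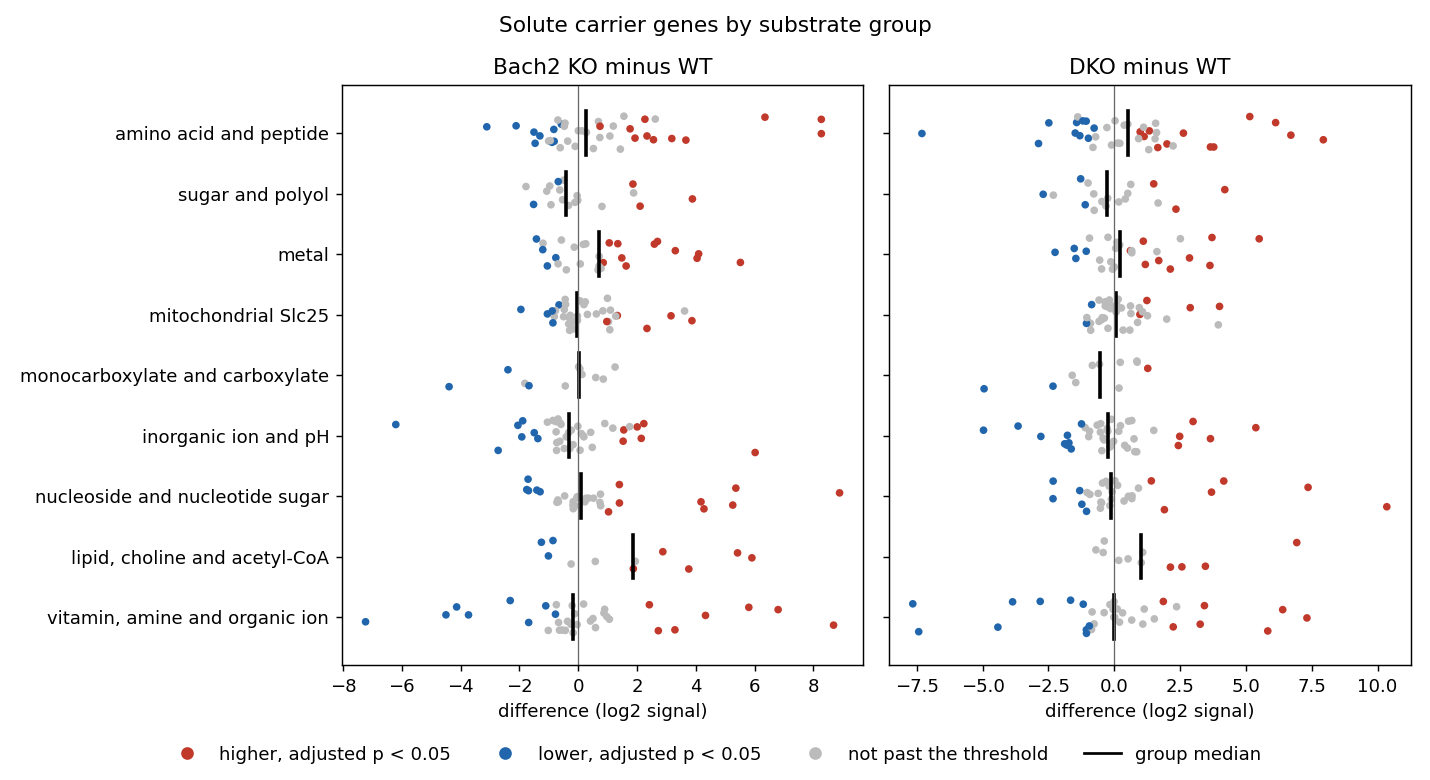
Each point is 1 solute carrier gene, placed by its difference from WT (log2 signal, x axis) in Bach2 KO (left) and DKO (right) and by substrate group (y axis), and colour marks an adjusted p under 0.05. Bars are the medians of the groups, and points past the threshold lie on both sides of 0 in most groups. The rightmost point of each panel is Slc28a2, which was above background on no WT array, so its place there is no measured size.

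Amino acid and peptide carriers were tested for 39 of the 59 such genes on the array. In Bach2 KO 11 were higher and 9 lower than in WT, and in DKO 12 were higher and 10 lower. Beside this and each group below, the shares over all features were 12.4% higher and 24.7% lower in Bach2 KO. In DKO they were 10.6% and 16.6%. Of 32 amino acid and peptide carriers measured on every array of Bach2 KO and WT, 7 were higher and 9 lower. Of 29 measured on every array of DKO and WT, 8 were higher and 7 lower. The higher genes included carriers of creatine, glycine, glutamate and cationic amino acids, and the lower genes included carriers of large neutral amino acids and peptides.

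The creatine transporter gene Slc6a8 read 4.60, 4.82 and 5.04 in DKO, 4.55, 4.09 and 4.75 in Bach2 KO, 1.25, 0.43 and 1.18 in Bach1 KO, against -3.25, -1.73 and -0.69 in WT. All arrays without Bach2 lay above all others, and Bach1 KO lay between them and WT. The difference from WT was 6.71 ± 0.52 (adjusted p = 2.27e-06) in DKO and 6.35 ± 0.52 (adjusted p = 5.22e-06) in Bach2 KO. It came to 6.03 without WT replicate 1 and 7.31 without WT replicate 3 in DKO, and to 5.67 without WT replicate 1 and 6.95 without WT replicate 3 in Bach2 KO. Slc6a9 encodes a glycine transporter of the plasma membrane. It read 2.17, 1.71 and 1.41 in DKO, 0.02, -1.0 and -1.12 in Bach2 KO, against -5.41, -5.08 and -2.60 in WT. Its difference was 6.13 ± 0.77 (adjusted p = 0.000112) in DKO (7.01 without WT replicate 3) and 3.66 ± 0.77 (adjusted p = 0.0038) in Bach2 KO (4.54 without WT replicate 3). The DKO level stood above that of Bach2 KO on every array, but the difference between these genotypes, 2.47 ± 0.77, did not pass (adjusted p = 0.0994). The taurine transporter gene Slc6a6 was lower by a smaller amount, at -0.89 ± 0.27 (adjusted p = 0.0253) in Bach2 KO, a call that was lost without Bach2 KO replicate 3 or WT replicates 2 or 3 (-0.87 to -0.55). The difference in DKO of -0.71 ± 0.27 did not pass.

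The glutamate transporters of the glial type were higher or lower in different genotypes. Slc1a2 (also called GLT-1) read 2.23, 2.39 and 2.39 in DKO, 3.17, 2.29 and 2.54 in Bach2 KO, -8.37, -8.05 and -6.32 in Bach1 KO (0 of 3 arrays above background), against -2.70, -6.25 and -7.87 in WT (1 of 3 arrays above background). The difference was 7.94 ± 1.01 (adjusted p = 0.000132) in DKO and 8.27 ± 1.01 (adjusted p = 0.000117) in Bach2 KO. Its size varied with the dim WT arrays. It was 9.39 without WT replicate 1 and 6.81 without WT replicate 3 in DKO, and 9.72 without WT replicate 1 and 7.14 without WT replicate 3 in Bach2 KO. Slc1a3 (GLAST) was seen in every genotype except DKO and is described with the double knockout below. The neutral amino acid exchanger Slc1a5 (ASCT2), a route for glutamine, read 5.09, 5.25 and 5.68 in DKO, 4.93, 4.98 and 4.17 in Bach2 KO, against 3.85, 4.31 and 3.86 in WT. Its difference was 1.33 ± 0.26 (adjusted p = 0.00284) in DKO and 0.69 ± 0.26 (adjusted p = 0.0575) in Bach2 KO, where it did not pass. Slc1a4, which carries alanine, serine and cysteine, differed by -0.28 ± 0.37 in DKO and 0.28 ± 0.37 in Bach2 KO, and neither passed.

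The cationic amino acid transporters, which bring arginine and lysine into the cell, were higher without Bach2. Slc7a1 read 4.52, 4.76 and 4.43 in DKO, 4.02, 3.73 and 3.38 in Bach2 KO, 2.51, 2.02 and 2.62 in Bach1 KO, against 2.09, 1.35 and 2.38 in WT. It differed from WT by 2.63 ± 0.29 (adjusted p = 4.69e-05) in DKO and 1.77 ± 0.29 (adjusted p = 0.000944) in Bach2 KO. Slc7a2, the form known from activated macrophages, read 3.46, 3.95 and 3.46 in DKO, 4.17, 3.76 and 4.78 in Bach2 KO, 1.90, 2.42 and 1.75 in Bach1 KO, against 2.30, 2.40 and 1.20 in WT. Its differences from WT were 1.66 ± 0.36 (adjusted p = 0.00589) in DKO and 2.27 ± 0.36 (adjusted p = 0.000756) in Bach2 KO. For both genes no array with intact Bach2 reached the lowest array without it. Slc7a3 was not above background on any WT or Bach1 KO array and read -3.13, -3.93 and -3.19 in DKO and -3.96, -3.94 and -3.76 in Bach2 KO. This was at least 4.96-fold above WT in DKO (adjusted p = 0.00185) and at least 3.59-fold above WT in Bach2 KO (adjusted p = 0.00393). Such bounds set the dim arrays at the lowest level that was called above background on each. Without WT replicate 2 the fitted difference of Slc7a3 was 4.34 in DKO, against 3.65 with it, and 3.87 in Bach2 KO, against 3.18 with it.

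Slc3a2 encodes the heavy chain that takes several of these light chains to the membrane. It read 6.43, 6.55 and 6.93 in DKO, 6.36, 6.32 and 6.49 in Bach2 KO, against 5.35, 5.44 and 6.16 in WT. Against WT, it stood at 0.99 ± 0.24 (adjusted p = 0.00948) in DKO and 0.74 ± 0.24 (adjusted p = 0.0288) in Bach2 KO. The Bach2 KO call was lost without Bach2 KO replicates 1, 2 or 3 or WT replicates 1 or 2 (0.59 to 0.78). Its partner light chains differed among themselves. The light chain gene Slc7a5 (LAT1), an importer of leucine and other large neutral amino acids, had differences of 0.93 ± 0.51 in DKO and -0.45 ± 0.51 in Bach2 KO that did not pass. Slc7a8 (LAT2) differed by 0.13 ± 0.42 in DKO and -0.95 ± 0.42 in Bach2 KO, and neither passed. Slc7a7 (y+LAT1), which exports cationic amino acids, was lower: it read 3.31, 3.28 and 3.59 in DKO, 3.69, 3.42 and 4.19 in Bach2 KO, against 4.48, 4.29 and 4.98 in WT. Relative to WT it came to -1.19 ± 0.26 (adjusted p = 0.00515) in DKO and -0.82 ± 0.26 (adjusted p = 0.0273) in Bach2 KO. The Bach2 KO call of Slc7a7 was lost without Bach2 KO replicates 1 or 2 or WT replicates 1 or 3 (-0.87 to -0.62). Slc43a2 (LAT4), which lets branched-chain amino acids through without an exchange partner, read 1.30, 1.10 and 1.22 in DKO, 1.22, 0.88 and 0.83 in Bach2 KO, 3.46, 3.19 and 3.30 in Bach1 KO, against 4.15, 3.43 and 4.66 in WT. Its difference was -2.88 ± 0.29 (adjusted p = 1.84e-05) in DKO and -3.11 ± 0.29 (adjusted p = 1.43e-05) in Bach2 KO, and the arrays without Bach2 lay below all others by more than 1 log2 unit. The aromatic amino acid carrier gene Slc16a10 (TAT1) was lower on its brightest probe, at -1.30 ± 0.26 in DKO and -1.30 ± 0.26 in Bach2 KO, but another probe of the gene ran the other way and the mean of its probes gave 0.29 in DKO.

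**Figure D2:**
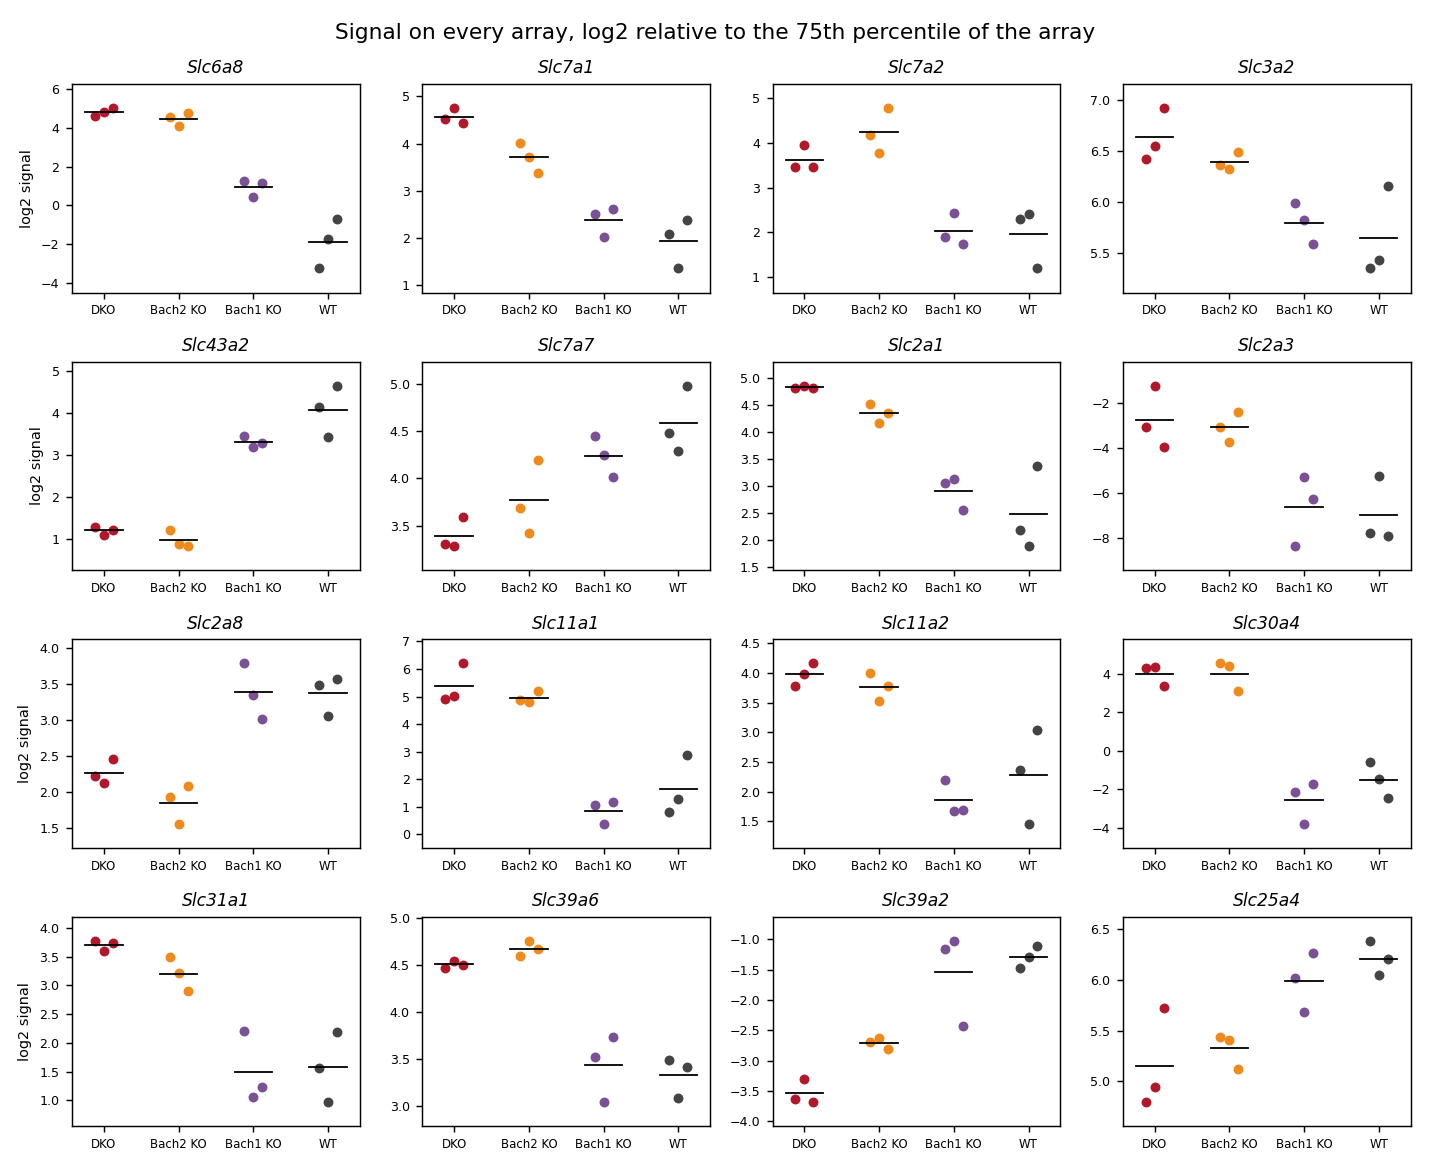
Each panel is 1 gene and each point 1 array, with genotypes from DKO to WT on the x axis, the log2 signal relative to the array's 75th percentile on the y axis, and bars for the genotype means. The DKO and Bach2 KO points lie apart from the WT points in each panel, above them for genes such as Slc6a8 and Slc30a4 and below them for genes such as Slc43a2 and Slc2a8.

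Slc36a2, a proton-coupled carrier of glycine and proline, read -0.30, 0.40 and 0.94 in DKO, 3.52, 3.62 and 3.26 in Bach2 KO, -0.76, -0.81 and -0.36 in Bach1 KO, against -5.47, -2.13 and -6.80 in WT (2 of 3 arrays above background). Its difference from WT was 8.27 ± 0.88 (adjusted p = 4.06e-05) in Bach2 KO (9.61 without WT replicate 2 and 7.27 without WT replicate 3) and 5.15 ± 0.88 (adjusted p = 0.00112) in DKO (6.48 without WT replicate 2 and 4.15 without WT replicate 3). Slc38a2 (SNAT2), a sodium-coupled carrier of small neutral amino acids that is known to follow amino acid supply, read 3.71, 4.0 and 3.74 in DKO, 4.17, 4.78 and 4.88 in Bach2 KO, against 2.52, 3.60 and 1.92 in WT. Its fitted differences were 1.14 ± 0.36 (adjusted p = 0.0361) in DKO and 1.93 ± 0.36 (adjusted p = 0.00191) in Bach2 KO. In DKO the call was lost without DKO replicates 1, 2 or 3 or WT replicates 1 or 3 (0.76 to 1.19). Slc38a11, whose substrate is little described, was lower, at -2.48 ± 0.35 (adjusted p = 0.000299) in DKO and -2.11 ± 0.35 (adjusted p = 0.000978) in Bach2 KO, at mean levels of -5.12 in DKO and -4.74 in Bach2 KO, against -2.63 in WT. Slc6a19, a neutral amino acid carrier known from gut and kidney, was not above background on any WT or Bach1 KO array and was at least 2.73-fold above WT in DKO (adjusted p = 0.000551) and at least 1.01-fold above WT in Bach2 KO (adjusted p = 0.0092). Slc6a20a, a proline carrier, was lower, at -1.48 ± 0.49 (adjusted p = 0.0418) in DKO and -1.50 ± 0.49 (adjusted p = 0.0311) in Bach2 KO.

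A list of 9 carriers among the targets described for ATF4, the transcription factor of the amino acid response, was counted, and 8 of them were tested (Slc43a1 was not above background). Of these, 6 were higher in DKO (Slc1a5, Slc38a2, Slc3a2, Slc6a9, Slc7a1 and Slc7a3) and 5 in Bach2 KO (the same genes except Slc1a5), and none was lower, while 10.6% of all features were higher in DKO and 12.4% in Bach2 KO. Slc7a3 entered through DKO and Bach2 KO, where it is high. The median difference of the 8 was 1.24 in DKO and 1.25 in Bach2 KO, against -0.28 and -0.30 over all features. Slc1a4 and Slc7a5 passed in neither.

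Sugar and polyol carriers were tested for 18 of 28 genes. In Bach2 KO 3 were higher and 2 lower than in WT, and in DKO 3 were higher and 3 lower. Of 15 measured on every array compared, 2 were higher and 2 lower in Bach2 KO, and of 14 in DKO 2 were higher and 2 lower. The glucose transporter genes were among the higher ones. Slc2a1 (GLUT1) read 4.80, 4.85 and 4.80 in DKO, 4.51, 4.16 and 4.34 in Bach2 KO, 3.04, 3.13 and 2.55 in Bach1 KO, against 2.18, 1.88 and 3.36 in WT, and no array with intact Bach2 reached the lowest array without it. The difference was 2.34 ± 0.33 (adjusted p = 0.000303) in DKO and 1.86 ± 0.33 (adjusted p = 0.00151) in Bach2 KO. Slc2a3 (GLUT3), a glucose transporter of high affinity, was above background on all DKO and Bach2 KO arrays, on 1 of 3 Bach1 KO arrays and on no WT array. It read -3.07, -1.23 and -3.95 in DKO and -3.06, -3.72 and -2.42 in Bach2 KO, which was at least 7.25-fold above WT in DKO (adjusted p = 0.00637) and at least 5.83-fold above WT in Bach2 KO (adjusted p = 0.0079). Its fitted difference of 4.20 in DKO was 3.44 without DKO replicate 2, 4.80 without DKO replicate 3 and 5.07 without WT replicate 2, and that of 3.88 in Bach2 KO was 4.75 without WT replicate 2. Slc2a8 (GLUT8), which sits on internal membranes, ran the other way and read 2.22, 2.12 and 2.45 in DKO, 1.92, 1.55 and 2.08 in Bach2 KO, 3.78, 3.35 and 3.01 in Bach1 KO, against 3.49, 3.05 and 3.56 in WT. The distances from WT were -1.10 ± 0.26 (adjusted p = 0.00833) in DKO and -1.52 ± 0.26 (adjusted p = 0.0011) in Bach2 KO. Slc2a6, which sits on lysosomes, and the urate carrier gene Slc2a9 passed in neither: Slc2a6 differed by -0.78 ± 0.38 in DKO and -0.53 ± 0.38 in Bach2 KO, and Slc2a9 by 0.17 ± 0.78 in DKO and -1.07 ± 0.78 in Bach2 KO. A dimmer probe of Slc2a6, above background on all 12 arrays, ran the other way, at 1.53 in DKO and 2.77 in Bach2 KO.

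Of the carriers of myo-inositol, Slc5a3 and Slc2a13 passed in 1 genotype each. Slc5a11 passed in neither, at -2.31 ± 0.82 in DKO and -1.77 ± 0.82 in Bach2 KO. Slc5a3, coupled to sodium, read -0.47, 0.01 and -1.24 in DKO, 0.76, 0.90 and 1.08 in Bach2 KO, against -2.24, 0.14 and -1.48 in WT. It was higher in Bach2 KO by 2.11 ± 0.52 (adjusted p = 0.00908) (2.77 without WT replicate 2), while the difference of 0.63 ± 0.52 in DKO did not pass. Slc2a13, coupled to protons, read -6.02, -4.97 and -6.13 in DKO (1 of 3 arrays above background), -4.40, -3.42 and -3.98 in Bach2 KO (2 of 3 arrays above background), against -3.38, -2.62 and -3.03 in WT. It was lower in DKO, at -2.70 ± 0.42 (adjusted p = 0.000599), while the difference of -0.92 ± 0.42 in Bach2 KO did not pass. The exchangers of glucose 6-phosphate and phosphate Slc37a2, described in macrophages, and Slc37a1 passed in DKO in opposite directions, at 1.50 ± 0.45 (adjusted p = 0.0291) for Slc37a2 and -1.27 ± 0.33 (adjusted p = 0.0137) for Slc37a1. In Bach2 KO the differences of 0.81 ± 0.45 for Slc37a2 and -0.11 ± 0.33 for Slc37a1 did not pass. The DKO calls were lost for Slc37a2 without DKO replicates 1 or 3 or WT replicate 2 (0.94 to 1.53) and for Slc37a1 without DKO replicate 3 (-1.08). A dimmer probe of Slc37a2, above background on all 12 arrays, gave larger differences from WT, 3.98 in DKO and 4.24 in Bach2 KO. Slc50a1 was lower in Bach2 KO, at -0.68 ± 0.22, but another of its probes ran the other way, the call was lost without Bach2 KO replicates 2 or 3 or WT replicates 1 or 3, and without scaling the difference was 0.013.

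Metal carriers were tested for 27 of 31 genes. In Bach2 KO 11 were higher and 4 lower than in WT, and in DKO 9 were higher and 4 lower. The median difference was 0.21 in DKO and 0.71 in Bach2 KO, against -0.28 and -0.30 over all features. Of the 26 metal carriers measured on every array of both groups, 8 were higher and 4 lower in DKO and 10 were higher and 4 lower in Bach2 KO.

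Both members of the proton-coupled divalent metal family were higher. Slc11a1 (NRAMP1), which pumps iron and manganese out of the phagosome and late endosome, read 4.90, 5.02 and 6.20 in DKO, 4.89, 4.81 and 5.20 in Bach2 KO, 1.05, 0.37 and 1.17 in Bach1 KO, against 0.81, 1.28 and 2.90 in WT. The difference was 3.71 ± 0.50 (adjusted p = 0.000203) in DKO and 3.30 ± 0.50 (adjusted p = 0.0005) in Bach2 KO, and without WT replicate 3, the highest WT array, it was 4.33 in DKO and 3.92 in Bach2 KO. Slc11a2 (DMT1), the importer of ferrous iron, read 3.78, 3.99 and 4.16 in DKO, 4.0, 3.52 and 3.79 in Bach2 KO, 2.19, 1.67 and 1.68 in Bach1 KO, against 2.37, 1.45 and 3.05 in WT. It differed from WT by 1.69 ± 0.35 (adjusted p = 0.00409) in DKO and 1.48 ± 0.35 (adjusted p = 0.00711) in Bach2 KO. The copper carriers moved with them. The importer gene Slc31a1 (CTR1) read 3.77, 3.60 and 3.74 in DKO, 3.49, 3.22 and 2.91 in Bach2 KO, against 1.56, 0.97 and 2.19 in WT. Its differences from WT were 2.13 ± 0.36 (adjusted p = 0.00101) in DKO and 1.63 ± 0.36 (adjusted p = 0.00486) in Bach2 KO. Slc31a2 (CTR2) was higher by 1.10 ± 0.29 (adjusted p = 0.0143) in DKO and 1.06 ± 0.29 (adjusted p = 0.0138) in Bach2 KO. These calls of Slc31a2 were lost without DKO replicate 3 (0.88) in DKO and without Bach2 KO replicate 1 (0.92) in Bach2 KO.

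Zinc carriers fall into the Slc30 family, which moves zinc out of the cytosol, and the Slc39 family, which moves it in. Slc30a4 (ZnT4), found on endosomes and lysosomes, read 4.30, 4.36 and 3.36 in DKO, 4.54, 4.40 and 3.12 in Bach2 KO, -2.13, -3.82 and -1.73 in Bach1 KO, against -0.57, -1.47 and -2.45 in WT. Every array without Bach2 lay above 3 and every other array below 0, and the difference was 5.50 ± 0.62 (adjusted p = 5.2e-05) in DKO and 5.52 ± 0.62 (adjusted p = 6.59e-05) in Bach2 KO. Slc30a1, the exporter of the plasma membrane, differed by 0.00 ± 0.43 in DKO and 0.26 ± 0.43 in Bach2 KO, and neither passed. Slc39a6 (ZIP6) read 4.47, 4.54 and 4.50 in DKO, 4.60, 4.75 and 4.67 in Bach2 KO, against 3.49, 3.08 and 3.41 in WT. Against WT, it stood at 1.18 ± 0.21 (adjusted p = 0.00169) in DKO and 1.35 ± 0.21 (adjusted p = 0.000691) in Bach2 KO. Its close relative Slc39a10 (ZIP10) read 1.47, 2.42 and 1.50 in DKO, 2.78, 3.07 and 4.14 in Bach2 KO, against -0.67, 1.19 and -2.67 in WT. Its difference was 4.04 ± 1.0 (adjusted p = 0.00899) in Bach2 KO (4.99 without WT replicate 2 and 3.07 without WT replicate 3) and 2.51 ± 1.0 (adjusted p = 0.0838) in DKO, where it did not pass.

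Slc39a2 (ZIP2) was the metal carrier with the lowest difference in DKO. It read -3.64, -3.31 and -3.69 in DKO, -2.70, -2.63 and -2.81 in Bach2 KO, -1.16, -1.03 and -2.43 in Bach1 KO, against -1.48, -1.30 and -1.11 in WT. Relative to WT it came to -2.25 ± 0.37 (adjusted p = 0.000965) in DKO and -1.42 ± 0.37 (adjusted p = 0.0122) in Bach2 KO. Slc39a3 (ZIP3) was lower in Bach2 KO, at -1.20 ± 0.26 (adjusted p = 0.00476), and the difference of -0.55 ± 0.26 in DKO did not pass. Slc39a4 (ZIP4) was lower in DKO, at -1.46 ± 0.49 (adjusted p = 0.0474) with arrays that overlapped those of WT, and the call was lost without Bach1 KO replicates 1, 2 or 3, Bach2 KO replicates 1, 2 or 3, DKO replicates 2 or 3 or WT replicates 1 or 3 (-1.46 to -1.11). The importers known for inflammation and for non-transferrin iron did not pass: Slc39a8 (ZIP8) differed by 0.66 ± 0.65 in DKO and 0.71 ± 0.65 in Bach2 KO. Slc39a14 (ZIP14) differed by -0.24 ± 0.40 in DKO and 0.07 ± 0.40 in Bach2 KO, and Slc39a1 (ZIP1) by -0.07 ± 0.34 in DKO and -0.40 ± 0.34 in Bach2 KO. The magnesium carrier gene Slc41a2 read 1.75, 1.80 and 1.73 in DKO, 1.86, 2.0 and 2.81 in Bach2 KO, against -0.92, -0.59 and -4.11 in WT. Its fitted differences were 3.63 ± 0.73 (adjusted p = 0.00325) in DKO (4.28 without WT replicate 2 and 2.52 without WT replicate 3) and 4.10 ± 0.73 (adjusted p = 0.00142) in Bach2 KO (4.74 without WT replicate 2 and 2.98 without WT replicate 3).

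The mitochondrial Slc25 family had 37 of 47 genes tested, with 5 higher and 5 lower in Bach2 KO and 4 higher and 3 lower in DKO. Of 33 measured on every array compared, 3 were higher and 5 lower in Bach2 KO, and of 34 in DKO 2 were higher and 3 lower. The ADP/ATP exchangers were lower. Slc25a4 read 4.80, 4.95 and 5.72 in DKO, 5.44, 5.41 and 5.13 in Bach2 KO, against 6.38, 6.04 and 6.21 in WT. The distances from WT were -1.05 ± 0.26 (adjusted p = 0.0101) in DKO and -0.88 ± 0.26 (adjusted p = 0.0191) in Bach2 KO. The Bach2 KO call of Slc25a4 was lost without Bach2 KO replicate 3 or WT replicate 1 (-0.80 to -0.78). Slc25a5 read 5.55, 5.80 and 6.29 in DKO, 5.92, 6.15 and 5.56 in Bach2 KO, against 6.81, 6.74 and 6.66 in WT. It differed from WT by -0.86 ± 0.23 (adjusted p = 0.0165) in DKO and -0.86 ± 0.23 (adjusted p = 0.0128) in Bach2 KO. Its calls were lost without DKO replicates 1 or 2 or WT replicate 1 (-0.82 to -0.69) in DKO and without Bach2 KO replicate 3 (-0.70) in Bach2 KO, and under quantile normalization the difference in Bach2 KO was 0.09. The mitochondrial iron importers diverged. Slc25a28 (mitoferrin 2) was lower, at -1.0 ± 0.25 (adjusted p = 0.0117) in DKO and -1.05 ± 0.25 (adjusted p = 0.00724) in Bach2 KO. Its call in DKO was lost without DKO replicate 2 (-0.82). Slc25a37 (mitoferrin 1) was higher in DKO by 0.98 ± 0.33 (adjusted p = 0.0491), and the difference of 0.84 ± 0.33 in Bach2 KO did not pass. That call of Slc25a37 was lost without Bach1 KO replicate 3, Bach2 KO replicates 1, 2 or 3, DKO replicates 1 or 2 or WT replicates 1 or 2 (0.80 to 0.97).

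Carriers of amino acids and nucleotides were among the Slc25 genes that were higher. Slc25a15, the ornithine carrier, was above background on no WT array and read -2.88, -3.39 and -1.91 in DKO and -3.0, -3.20 and -2.37 in Bach2 KO, which was at least 8.01-fold above WT in DKO (adjusted p = 0.000542) and at least 7.32-fold above WT in Bach2 KO (adjusted p = 0.000708). Its fitted difference of 4.0 in DKO was 3.36 without WT replicate 1, and that of 3.87 in Bach2 KO was 3.23 without WT replicate 1. Slc25a33, a pyrimidine nucleotide carrier, read 3.21, 3.44 and 3.37 in DKO, 3.30, 3.29 and 3.71 in Bach2 KO, 2.93, 2.83 and 2.83 in Bach1 KO, against 1.77, 2.73 and 1.80 in WT. Its differences from WT were 1.24 ± 0.27 (adjusted p = 0.00513) in DKO and 1.33 ± 0.27 (adjusted p = 0.00295) in Bach2 KO, and a dimmer probe gave 2.55 in DKO and 3.01 in Bach2 KO. Slc25a13, an aspartate and glutamate exchanger of the malate-aspartate shuttle, was higher in Bach2 KO by 0.97 ± 0.33 (adjusted p = 0.0374), a call lost without Bach2 KO replicates 1 or 2, DKO replicate 1 or WT replicates 1 or 3 (0.76 to 0.97), and the difference of 0.62 ± 0.33 in DKO did not pass. Slc25a42, the coenzyme A carrier, was lower in Bach2 KO, at -1.95 ± 0.46 (adjusted p = 0.0069), and the difference of -0.89 ± 0.46 in DKO did not pass. Of the other carriers of central metabolism, the phosphate carrier gene Slc25a3 differed by 0.10 ± 0.22 in DKO and -0.32 ± 0.22 in Bach2 KO, and the citrate carrier gene Slc25a1 by -0.34 ± 0.26 in DKO and -0.29 ± 0.26 in Bach2 KO. The carnitine and acylcarnitine carrier gene Slc25a20 differed by -0.58 ± 0.50 in DKO and -0.03 ± 0.50 in Bach2 KO. None of these 3 passed.

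Monocarboxylate and carboxylate carriers were tested for 11 of 20 genes, with 0 higher and 3 lower in Bach2 KO and 1 higher and 2 lower in DKO. The 0 comes from the limma fit, and at an unadjusted p under 0.05 there were 2 higher and 4 lower in Bach2 KO. Of 8 measured on every array compared, 0 were higher and 2 lower in Bach2 KO, and of 9 in DKO 1 was higher and 1 lower. Slc13a2, a sodium-coupled carrier of succinate and citrate, read -3.59, -3.67 and -4.43 in DKO, -3.21, -3.01 and -3.82 in Bach2 KO, -1.37, 0.02 and 0.99 in Bach1 KO, against 0.78, 0.09 and 2.26 in WT. Against WT, it stood at -4.94 ± 0.64 (adjusted p = 0.000142) in DKO (-4.33 without WT replicate 3) and -4.39 ± 0.64 (adjusted p = 0.000368) in Bach2 KO (-3.78 without WT replicate 3). Slc16a3 (MCT4), the lactate exporter of glycolytic cells, read 3.08, 2.67 and 1.99 in DKO, 1.82, 1.0 and 0.24 in Bach2 KO, 3.43, 2.19 and 2.72 in Bach1 KO, against 3.09, 2.43 and 4.71 in WT. Relative to WT it came to -2.39 ± 0.58 (adjusted p = 0.00831) in Bach2 KO (-1.74 without WT replicate 3) and -0.83 ± 0.58 (adjusted p = 0.303) in DKO, where it did not pass. The difference between DKO and Bach2 KO, 1.56 ± 0.58, did not pass either (adjusted p = 0.155). Slc16a1 (MCT1) differed by -0.56 ± 0.37 in DKO and -0.44 ± 0.37 in Bach2 KO, and neither passed. Slc16a6 was higher in DKO by 1.27 ± 0.22 (adjusted p = 0.0014), and the difference of 0.60 ± 0.22 in Bach2 KO did not pass. A dimmer probe of Slc16a6, above background on 2 of 3 WT arrays, gave larger differences from WT, 3.60 in DKO and 3.74 in Bach2 KO.

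Inorganic ion and pH carriers were tested for 39 of 63 genes, with 6 higher and 7 lower in Bach2 KO and 5 higher and 9 lower in DKO. Of 28 measured on every array compared, 4 were higher and 6 lower in Bach2 KO, and of 30 in DKO 3 were higher and 8 lower. Of the sodium/proton exchangers, Slc9a2, Slc9a4 and Slc9a7 were lower in both genotypes. Slc9a2 (NHE2) read -4.90, -4.18 and -3.86 in DKO, -6.56, -4.66 and -5.43 in Bach2 KO (2 of 3 arrays above background), 1.73, 1.27 and 0.20 in Bach1 KO, against 1.66, 1.40 and -1.11 in WT. Its fitted differences were -4.96 ± 0.73 (adjusted p = 0.000404) in DKO (-5.84 without WT replicate 3) and -6.20 ± 0.73 (adjusted p = 8.96e-05) in Bach2 KO (-7.08 without WT replicate 3). Slc9a4 (NHE4) read -0.53, -0.12 and -0.91 in DKO, 1.43, 1.42 and 0.80 in Bach2 KO, 2.91, 3.31 and 2.81 in Bach1 KO, against 2.88, 3.68 and 2.83 in WT. The distances from WT were -3.65 ± 0.32 (adjusted p = 6.08e-06) in DKO and -1.92 ± 0.32 (adjusted p = 0.000909) in Bach2 KO, and the 4 genotypes formed 3 levels with DKO lowest. Slc9a7 (NHE7), found on the Golgi, was lower, at -1.78 ± 0.34 in DKO and -1.89 ± 0.34 in Bach2 KO on its brightest probe, while another probe ran the other way and the mean of its probes gave 0.15 in Bach2 KO. Slc9b2 (NHA2) was above background on all DKO arrays, 1 of 3 Bach2 KO arrays and no WT array, at least 2.69-fold above WT in DKO (adjusted p = 0.0101, fitted difference 3.65 and 2.72 without DKO replicate 3). Slc9a3r2 (NHERF2) is a scaffold that binds transporters and carries the symbol without being one. It read -1.99, -1.75 and -1.65 in DKO, -0.85, -1.03 and -0.81 in Bach2 KO, against -0.32, 0.05 and -0.22 in WT. It differed by -1.63 ± 0.32 (adjusted p = 0.00292) in DKO and by -0.73 ± 0.32 in Bach2 KO, where it did not pass. Its other probe, also above background on all 12 arrays, gave larger differences from WT, -4.86 in DKO and -2.99 in Bach2 KO.

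Bicarbonate and sulfate carriers were higher or lower by gene. Slc4a8, a sodium-driven chloride and bicarbonate exchanger, was above background on no WT array and read -0.65, -2.57 and -2.97 in DKO and -1.27, -1.95 and -1.05 in Bach2 KO, which was at least 12.7-fold above WT in DKO (adjusted p = 0.000103) and at least 19.8-fold above WT in Bach2 KO (adjusted p = 5.64e-05). The fitted difference of 5.38 in DKO was 4.67 without DKO replicate 1. Slc26a11, a sulfate carrier, read 2.16, 2.10 and 2.22 in DKO, 1.80, 1.51 and 1.73 in Bach2 KO, against -0.41, -0.65 and 0.09 in WT. It differed from WT by 2.49 ± 0.28 (adjusted p = 4.47e-05) in DKO and 2.01 ± 0.28 (adjusted p = 0.000256) in Bach2 KO. Slc4a11, a proton and ammonia pathway known from the cornea, was lower, at -1.78, -2.87 and -3.08 in DKO, -3.57, -3.68 and -2.99 in Bach2 KO, against 0.15, -0.99 and -1.25 in WT. Its differences from WT were -1.88 ± 0.53 (adjusted p = 0.0221) in DKO and -2.72 ± 0.53 (adjusted p = 0.00261) in Bach2 KO. Its DKO call was lost without DKO replicates 2 or 3 or WT replicate 1 (-1.74 to -1.46). Slc12a7 (KCC4), a potassium and chloride cotransporter, was lower in DKO, at -1.80 ± 0.31 (adjusted p = 0.00133), and the difference of -0.73 ± 0.31 in Bach2 KO did not pass. Slc24a5, an exchanger of sodium and calcium known from pigment cells, was lower, at -2.79 ± 0.67 (adjusted p = 0.00945) in DKO and -2.05 ± 0.67 (adjusted p = 0.0317) in Bach2 KO. The Bach2 KO call was lost without Bach2 KO replicates 1 or 3 or WT replicates 1 or 2 (-2.19 to -1.63).

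Carriers of nucleosides and nucleotide sugars were tested for 30 of 35 genes, with 8 higher and 5 lower in Bach2 KO and 6 higher and 5 lower in DKO. Of 25 measured on every array compared, 4 were higher and 5 lower in Bach2 KO, and of 26 in DKO 2 were higher and 5 lower. Slc28a2 (CNT2), which takes up purine nucleosides with sodium, read 2.68, 2.61 and 3.22 in DKO and 1.33, 1.34 and 1.44 in Bach2 KO and was above background on no Bach1 KO or WT array, so its level was at least 379-fold above WT in DKO (adjusted p = 7.81e-08) and at least 137-fold in Bach2 KO (adjusted p = 3.63e-07). The closely related copy Slc28a2b read 0.48, 0.41 and 0.84 in DKO and -1.52, -1.23 and -1.51 in Bach2 KO, which was at least 79.2-fold above WT in DKO (adjusted p = 1.47e-06) and at least 19.8-fold above WT in Bach2 KO (adjusted p = 2.58e-05). A probe of either copy may catch transcripts of the other, so the share of each gene is uncertain. The equilibrative nucleoside transporters differed in opposite directions. Slc29a1 (ENT1), at the plasma membrane, read 4.14, 4.38 and 4.44 in DKO, 4.89, 5.29 and 4.50 in Bach2 KO, 6.34, 5.95 and 6.17 in Bach1 KO, against 6.30, 6.83 and 6.79 in WT. Against WT, it stood at -2.32 ± 0.24 (adjusted p = 2.23e-05) in DKO and -1.75 ± 0.24 (adjusted p = 0.000229) in Bach2 KO. Slc29a3 (ENT3), on lysosomes, read 2.23, 3.48 and 2.29 in DKO, 3.75, 3.28 and 4.27 in Bach2 KO, -0.91, -0.03 and -1.49 in Bach1 KO, against -1.77, -0.59 and -2.12 in WT. Relative to WT it came to 4.16 ± 0.51 (adjusted p = 9.44e-05) in DKO and 5.26 ± 0.51 (adjusted p = 2.06e-05) in Bach2 KO. For both genes the arrays with and without Bach2 did not overlap.

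The GDP-fucose carrier gene of the Golgi, Slc35c1, was lower in Bach2 KO, at -1.70 ± 0.39 (adjusted p = 0.00589), and the difference of -0.53 ± 0.39 in DKO did not pass. Its relative Slc35c2 was lower, at -1.31 ± 0.31 (adjusted p = 0.0093) in DKO and -1.69 ± 0.31 (adjusted p = 0.00184) in Bach2 KO. Slc35e3, with no known substrate, was higher by 3.69 ± 1.03 (adjusted p = 0.0204) in DKO and 4.28 ± 1.03 (adjusted p = 0.00773) in Bach2 KO. This size varied with the WT arrays: it was 4.63 without WT replicate 2 and 2.21 without WT replicate 3 in DKO, where the call was lost without DKO replicates 1, 2 or 3, and 5.21 without WT replicate 2 and 2.80 without WT replicate 3 in Bach2 KO. Slc43a3, a purine base carrier, was higher in DKO by 1.41 ± 0.39 (adjusted p = 0.0194), a call lost without DKO replicates 1 or 3 or WT replicates 1 or 2 (1.10 to 1.38), and the difference of 0.77 ± 0.39 in Bach2 KO did not pass.

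Carriers of lipids, choline and acetyl-CoA were tested for 11 of 22 genes, with 5 higher and 3 lower in Bach2 KO and 4 higher and 0 lower in DKO. At an unadjusted p under 0.05 in the same limma fit, 5 were higher and 0 lower in DKO. Of 8 measured on every array compared, 2 were higher and 3 lower in Bach2 KO, and of 8 in DKO 2 were higher and 0 lower. Slc33a1, which brings acetyl-CoA into the endoplasmic reticulum, read 1.63, 1.43 and 1.30 in DKO, 1.80, 1.99 and 2.81 in Bach2 KO, -1.78, -0.57 and -0.56 in Bach1 KO, against -0.25, -0.48 and -1.31 in WT. Its fitted differences were 2.13 ± 0.41 (adjusted p = 0.00262) in DKO and 2.88 ± 0.41 (adjusted p = 0.00034) in Bach2 KO. Slc27a1 (FATP1), a fatty acid uptake protein and acyl-CoA synthetase, read 1.85, 1.67 and 2.05 in DKO, 1.48, 0.90 and 1.10 in Bach2 KO, -0.70, 0.14 and -0.59 in Bach1 KO, against -0.42, -0.76 and -0.96 in WT. The distances from WT were 2.57 ± 0.30 (adjusted p = 6.18e-05) in DKO and 1.88 ± 0.30 (adjusted p = 0.000691) in Bach2 KO. Its relative Slc27a6 was above background on no WT or Bach1 KO array and read -0.66, -0.66 and -0.48 in DKO and -2.15, -2.0 and -2.18 in Bach2 KO, which was at least 35-fold above WT in DKO (adjusted p = 2.16e-06) and at least 12.3-fold above WT in Bach2 KO (adjusted p = 2.14e-05). Slc27a4 differed by 0.53 ± 0.47 in DKO and 0.58 ± 0.47 in Bach2 KO, and neither passed. The choline-like carrier gene Slc44a5 was at least 2.57-fold above WT in DKO (adjusted p = 0.00048) and at least 3.16-fold above WT in Bach2 KO (adjusted p = 0.000279) on its brightest probe, and its other probe was above background on 1 Bach2 KO array alone. Slc44a2 was lower in Bach2 KO, at -1.25 ± 0.34 (adjusted p = 0.014), a call lost without WT replicate 3 (-1.02). The bile acid carrier gene Slc10a1 (NTCP), known from liver, was above background on all 12 arrays and was lower in Bach2 KO, at -1.01 ± 0.25 (adjusted p = 0.0084), but its other probe was above background on no array.

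Carriers of vitamins, amines and organic ions were tested for 35 of 60 genes, with 7 higher and 8 lower in Bach2 KO and 7 higher and 10 lower in DKO. Most of the higher calls were of genes not above background on every array compared. Of 26 that were, 1 was higher and 7 lower in Bach2 KO, and of 26 in DKO 1 was higher and 9 lower. Slc6a12 (BGT1), which takes up betaine and GABA, read 1.12, 1.59 and 1.60 in DKO, 3.04, 2.60 and 2.79 in Bach2 KO, -6.28, -6.77 and -6.60 in Bach1 KO (0 of 3 arrays above background), against -7.08, -6.92 and -3.62 in WT (1 of 3 arrays above background). Its difference was 7.32 ± 0.72 (adjusted p = 1.66e-05) in DKO (6.71 without WT replicate 1 and 8.44 without WT replicate 3) and 8.69 ± 0.72 (adjusted p = 6.32e-06) in Bach2 KO (8.08 without WT replicate 1 and 9.81 without WT replicate 3). The neighbouring family member Slc6a13 (GAT2) was higher by 3.42 ± 0.65 (adjusted p = 0.00221) in DKO (4.09 without WT replicate 1) and 4.33 ± 0.65 (adjusted p = 0.000448) in Bach2 KO (4.99 without Bach2 KO replicate 3 and 5.0 without WT replicate 1). Slc22a4 (OCTN1), the ergothioneine transporter, read 0.85, 1.02 and 1.55 in DKO, 0.49, 0.55 and 0.60 in Bach2 KO, -2.58, -1.79 and -6.44 in Bach1 KO (2 of 3 arrays above background), against -5.64, -3.11 and -7.01 in WT (1 of 3 arrays above background). It differed from WT by 6.40 ± 1.11 (adjusted p = 0.00127) in DKO (7.47 without WT replicate 2 and 5.52 without WT replicate 3) and 5.80 ± 1.11 (adjusted p = 0.00226) in Bach2 KO (6.87 without WT replicate 2 and 4.92 without WT replicate 3). Slc14a1, a urea channel known from kidney and red cells, was above background on no WT or Bach1 KO array and read -6.40, -5.20 and -6.83 in DKO, where 1 of 3 arrays was above background, and -4.36, -5.07 and -4.73 in Bach2 KO. In Bach2 KO it was at least 2.01-fold above WT (adjusted p = 0.000618). In DKO the test passed (adjusted p = 0.0194) without a bound above 1, so no fold is given, and that call was lost without DKO replicate 2 or WT replicates 1 or 3. With normexp background correction neither passed (adjusted p = 0.464 in DKO and 0.059 in Bach2 KO). Slc22a23, an orphan of the organic ion family, was higher by 5.83 ± 1.18 (adjusted p = 0.00341) in DKO (5.17 without DKO replicate 1, 7.40 without WT replicate 1, 5.14 without WT replicate 2 and 4.95 without WT replicate 3) and 6.80 ± 1.18 (adjusted p = 0.0012) in Bach2 KO (8.37 without WT replicate 1, 6.11 without WT replicate 2 and 5.92 without WT replicate 3).

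Slc6a4, Slc52a3 and Slc22a18 were lower in both genotypes by more than 3 log2 units. Slc6a4, the serotonin transporter, read -2.30, -3.94 and -4.78 in DKO, -2.85, -3.17 and -3.75 in Bach2 KO, 3.66, 3.83 and 3.81 in Bach1 KO, against 4.09, 3.80 and 4.03 in WT, and in DKO its difference of -7.65 was -8.34 without DKO replicate 1. Slc52a3, a riboflavin importer, read -1.30, -2.11 and -2.03 in DKO, -1.80, -1.42 and -1.37 in Bach2 KO, 2.06, 2.34 and 2.55 in Bach1 KO, against 2.18, 3.27 and 2.37 in WT. Its differences from WT were -4.42 ± 0.34 (adjusted p = 2.44e-06) in DKO and -4.13 ± 0.34 (adjusted p = 6.28e-06) in Bach2 KO. Slc22a18, an organic cation carrier from an imprinted region, read 0.69, 0.68 and 0.92 in DKO, 1.06, 1.13 and 0.48 in Bach2 KO, 4.92, 4.57 and 4.55 in Bach1 KO, against 4.38, 4.15 and 5.33 in WT. Against WT, it stood at -3.86 ± 0.31 (adjusted p = 3.17e-06) in DKO and -3.73 ± 0.31 (adjusted p = 6.32e-06) in Bach2 KO. In each of these genes the arrays without Bach2 lay below every other array. Slc18b1, a polyamine carrier of vesicles, was lower, at -2.81 ± 0.60 (adjusted p = 0.00487) in DKO. In Bach2 KO its difference was -1.68 ± 0.60 (adjusted p = 0.0455), and that call was lost without Bach2 KO replicates 1 or 3, DKO replicates 1, 2 or 3 or WT replicates 1, 2 or 3 (-1.92 to -1.14).

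Lysosomal carriers cut across these groups, and all 14 genes of the list were tested. In DKO 6 were higher (Slc11a1, Slc17a5, Slc29a3, Slc30a4, Slc38a7 and Slc9b2) and 5 lower (Slc15a3, Slc15a4, Slc2a8, Slc36a1 and Slc46a3), and in Bach2 KO 4 were higher (the first 4 of those) and 4 lower (Slc15a3, Slc15a4, Slc2a8 and Slc36a1). Over all features, 10.6% were higher and 16.6% lower in DKO, and 12.4% were higher and 24.7% lower in Bach2 KO. Slc9b2 entered through DKO alone, where it is high. The higher genes carry metals, sialic acid, nucleosides and glutamine, and the lower ones carry peptides, histidine, sugars and small amino acids. Slc15a3, a histidine and peptide carrier, read 4.56, 4.79 and 4.52 in DKO, 4.95, 4.62 and 4.88 in Bach2 KO, against 5.30, 5.37 and 5.49 in WT. Relative to WT it came to -0.76 ± 0.17 (adjusted p = 0.007) in DKO and -0.57 ± 0.17 (adjusted p = 0.0233) in Bach2 KO. The Bach2 KO difference was 0.13 under quantile normalization and 0.12 without scaling, and its call was lost without Bach2 KO replicate 2 or WT replicate 3. Slc15a4, its relative that takes part in endosomal Toll-like receptor signalling, read 4.90, 4.67 and 5.39 in DKO, 4.61, 4.27 and 4.64 in Bach2 KO, against 6.13, 5.16 and 6.61 in WT. Its fitted differences were -0.98 ± 0.34 (adjusted p = 0.0489) in DKO and -1.46 ± 0.34 (adjusted p = 0.00604) in Bach2 KO. The DKO arrays overlapped those of WT, and the DKO call was lost without Bach1 KO replicates 1, 2 or 3, Bach2 KO replicates 1, 2 or 3, DKO replicates 1 or 2 or WT replicates 1 or 3 (-0.98 to -0.66). Slc17a5 (sialin) was higher by 2.24 ± 0.52 (adjusted p = 0.00772) in DKO and 2.42 ± 0.52 (adjusted p = 0.00424) in Bach2 KO, but another of its probes ran the other way in Bach2 KO. Slc36a1 (PAT1) was lower, at -1.06 ± 0.25 (adjusted p = 0.00775) in DKO and -0.83 ± 0.25 (adjusted p = 0.0212) in Bach2 KO, but another of its probes ran the other way in both, and the Bach2 KO call was lost without Bach2 KO replicate 3 (-0.73). The glutamine carrier gene Slc38a7 was higher in DKO by 2.0 ± 0.67 (adjusted p = 0.0468), with 2 DKO values after an outlier spot was dropped, and lost its call without Bach1 KO replicate 1, Bach2 KO replicates 1 or 2, DKO replicate 3 or WT replicates 1 or 3 (1.62 to 2.02). Slc46a3 was lower in DKO, at -0.94 ± 0.29 (adjusted p = 0.031), a call lost without DKO replicates 1 or 2 or WT replicates 1, 2 or 3 (-1.02 to -0.79). The arginine sensor gene Slc38a9 differed by 1.57 ± 0.71 in DKO and 1.55 ± 0.71 in Bach2 KO, and the cationic amino acid exporter gene Slc66a1 by 0.21 ± 0.31 in DKO and -0.10 ± 0.31 in Bach2 KO, and neither gene passed. Of the other probes of Slc38a9, 1 ran the other way, at -0.59 in DKO and -0.24 in Bach2 KO.

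Loss of Bach1 alone changed no member past the threshold. Of 249 members, 0 were higher and 0 lower in Bach1 KO than in WT in the limma fit, where 0.0173% of all features were higher and 0.0432% lower. At an unadjusted p under 0.05 there were 7 higher and 7 lower. With array quality weights 2 members were higher, beside 19 of all features, and with no scaling 1, beside 7 of all features. The members nearest the threshold were Slc6a8, at 2.84 ± 0.52 (adjusted p = 0.104), Slc3a1, at 4.80 ± 0.91 (adjusted p = 0.123) and chosen for this text after its values were seen, and Slc36a2, at 4.16 ± 0.88 (adjusted p = 0.186). All 3 were higher on every Bach1 KO array than on any WT array. Slc3a1, a subunit of the cystine transporter of kidney, read -6.22, -5.98 and -4.51 in DKO (1 of 3 arrays above background), -6.57, -6.10 and -6.43 in Bach2 KO (1 of 3 arrays above background), -3.02, -5.36 and -0.63 in Bach1 KO, against -7.83, -7.65 and -7.93 in WT (0 of 3 arrays above background), so that it was above background on every array in Bach1 KO alone. Slc41a2 and Slc25a33 had the same order of arrays, at 1.79 ± 0.73 (adjusted p = 0.821) and 0.77 ± 0.27 (adjusted p = 0.657). Slc43a2 was at -0.77 ± 0.29 (adjusted p = 0.741) and Slc1a3 at -1.38 ± 0.62 (adjusted p = 0.931). Leaving out WT replicate 2, WT replicate 3 or Bach1 KO replicate 2 gave 1 higher member each, so the count rests on single arrays.

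Loss of Bach1 where Bach2 was absent is read from DKO against Bach2 KO. DKO had 1 member higher and 11 lower, while 1.45% of all features were higher and 2.11% lower. The members' shares were 0.402% and 4.42%. Other processing moved this split, to 8 higher and 10 lower with normexp background correction, 8 higher and 15 lower in the series matrix values, 3 higher and 13 lower with quantile normalization, and 0 higher and 10 lower without scaling. Over all features the counts were 525 higher and 579 lower with normexp, and 639 and 811 in the series matrix values. They were 541 and 802 with quantile normalization, and 118 and 463 without scaling. The DKO arrays were all on slide 3 and the Bach2 KO arrays were not. Slc22a17, known as a receptor for lipocalin 2 and its iron-binding cargo, read -3.99, -3.95 and -4.07 in DKO, -0.94, -1.33 and -0.95 in Bach2 KO, 3.29, 3.15 and 2.64 in Bach1 KO, against 3.26, 3.53 and 3.48 in WT. It formed 3 separate levels, with a difference of -2.93 ± 0.25 (adjusted p = 0.000111) between DKO and Bach2 KO, of -7.42 ± 0.25 (adjusted p = 9.64e-09) between DKO and WT and of -4.50 ± 0.25 (adjusted p = 3.77e-07) between Bach2 KO and WT. Slc1a3 read -6.27, -7.65 and -5.45 in DKO, where no array was above background, 1.44, 1.78 and -0.30 in Bach2 KO, -0.12, -0.89 and -0.58 in Bach1 KO and 0.38, 0.84 and 1.31 in WT. It was at least 81.4-fold lower in DKO than in Bach2 KO (adjusted p = 8.84e-05) and at least 74.3-fold lower than in WT (adjusted p = 4.94e-06). The fitted difference of -7.43 between DKO and Bach2 KO was -8.07 without Bach2 KO replicate 3 and -6.83 without DKO replicate 2, and that of -7.30 between DKO and WT was -6.70 without DKO replicate 2.

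Slc10a6, a carrier of sulfated steroids, read -2.01, -2.27 and -2.15 in Bach2 KO on the probe used. This probe was above background on none of the other 9 arrays, and passed the background rule through Bach2 KO alone. On it the level of Slc10a6 was at least 9.37-fold lower in DKO than in Bach2 KO (adjusted p = 0.000142). It was at least 12-fold higher in Bach2 KO than in WT (adjusted p = 2.47e-06). A second probe of Slc10a6, brighter in DKO, Bach1 KO and WT but dimmer in Bach2 KO, did not pass the background rule. That probe was above background on 0 of 3 DKO, 2 of 3 Bach2 KO, 1 of 3 Bach1 KO and 1 of 3 WT arrays. Its differences were smaller, at -2.61 for DKO minus Bach2 KO and 1.53 for Bach2 KO minus WT. The brightest probes of Slc16a5 and Slc24a4 also were above background on no DKO array, at least 3.19-fold lower than in Bach2 KO for Slc16a5 (adjusted p = 0.0186) and at least 1.98-fold lower for Slc24a4 (adjusted p = 0.00399). The call of Slc16a5 was lost without Bach2 KO replicates 1 or 3 or DKO replicate 1 (-2.71 to -2.40), and its other probe ran the other way, at 2.38 for DKO minus Bach2 KO, with 2 of 3 DKO and 0 of 3 Bach2 KO arrays above background. Slc9a4 was lower, at -1.74 ± 0.32 (adjusted p = 0.0131), a call lost without Bach2 KO replicate 1 or DKO replicates 1 or 3 (-1.73 to -1.54). Slc39a12, a zinc importer known from brain, read -1.07, -0.64 and -2.24 in DKO, 0.81, 1.12 and 0.71 in Bach2 KO, against 0.52, 0.69 and -0.60 in WT. It was lower in DKO than in Bach2 KO, at -2.20 ± 0.47 (adjusted p = 0.0277), a call lost without Bach2 KO replicates 1, 2 or 3 or DKO replicates 1 or 3 (-2.32 to -1.73). Slc35g2 was lower, at -2.27 ± 0.47 (adjusted p = 0.0254), a call lost without Bach2 KO replicates 1 or 2 or DKO replicates 1 or 3 (-2.18 to -2.04), although it was higher than WT in both. Slc35e1 was lower, at -1.58 ± 0.31 (adjusted p = 0.0193), and Slc2a13 at -1.77 ± 0.42 (adjusted p = 0.0429). Their calls were lost without Bach2 KO replicate 3 or DKO replicate 1 (-1.39 to -1.25) for Slc35e1, and without Bach1 KO replicates 1 or 2, Bach2 KO replicates 1, 2 or 3, DKO replicates 1 or 3 or WT replicate 1 (-2.01 to -1.52) for Slc2a13. The single higher member, the neutral amino acid carrier gene Slc38a1 (SNAT1), read 4.10, 4.12 and 3.96 in DKO, against 3.26, 3.05 and 3.25 in Bach2 KO, a difference of 0.87 ± 0.21 (adjusted p = 0.0485). That call was lost without Bach1 KO replicate 1, Bach2 KO replicates 1, 2 or 3, DKO replicates 1, 2 or 3 or WT replicate 1 (0.81 to 0.92), with the replicate number as a block it did not pass (adjusted p = 0.0702), and another probe of Slc38a1 ran the other way.

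The interaction asks whether loss of Bach1 had another effect without Bach2 than with it, and is the difference of DKO from Bach2 KO minus that of Bach1 KO from WT. It passed for 0 members above 0 and 4 below 0 (1.61% of the members), while 0.104% of all features were above and 0.571% below. At an unadjusted p under 0.05 in the same limma fit, 23 members were above 0 and 24 below. For Slc10a6 it was -5.15 ± 0.61 (adjusted p = 0.00288) on the probe used, and for Slc22a17 -2.54 ± 0.36 (adjusted p = 0.00872). For Slc1a3 it was -6.06 ± 0.88 (adjusted p = 0.00982), and came to -6.69 without Bach2 KO replicate 3 and -5.46 without DKO replicate 2. For Slc36a2 it was -7.28 ± 1.24 (adjusted p = 0.0228), and came to -8.62 without WT replicate 2 and -6.28 without WT replicate 3. The call of Slc36a2 was lost without Bach1 KO replicate 1, Bach2 KO replicates 1, 2 or 3, DKO replicates 1 or 2 or WT replicate 1 (-7.38 to -6.94). In Slc36a2 the level was higher in Bach1 KO than in WT and lower in DKO than in Bach2 KO, but neither difference passed. The difference of Bach1 KO from WT was -1.38 ± 0.62 for Slc1a3, 0.32 ± 0.43 for Slc10a6 and -0.39 ± 0.25 for Slc22a17, none of which passed. Slc1a3, Slc10a6 and Slc36a2 each have a genotype with arrays below background, where the fitted interaction is no measured size.

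**Figure D3:**
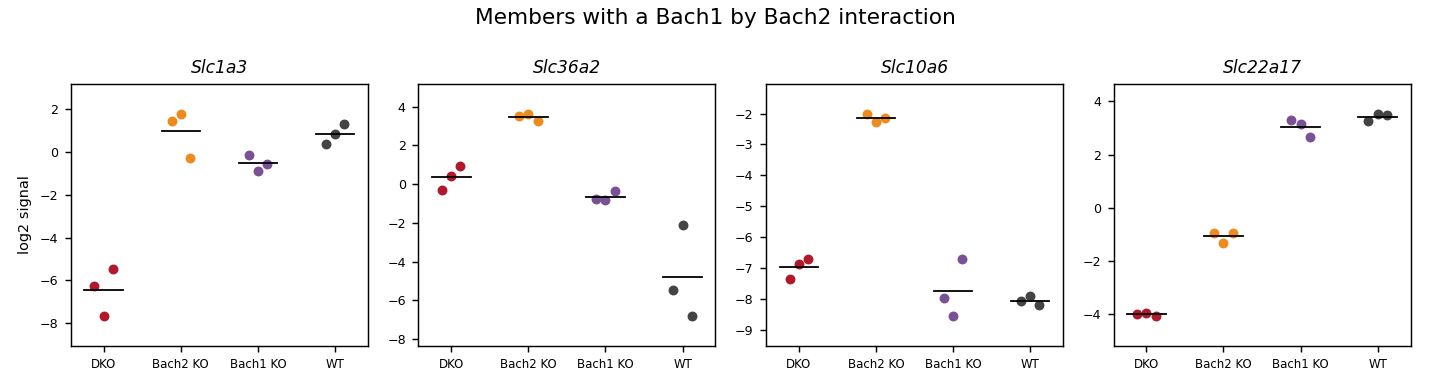
Each panel is 1 of the 4 members with an interaction, each point 1 array, with genotypes from DKO to WT on the x axis, the log2 signal relative to the array's 75th percentile on the y axis, and bars for the genotype means. Slc1a3 is low in DKO alone, Slc10a6 is high in Bach2 KO alone on the probe plotted, Slc22a17 is lowest in DKO and intermediate in Bach2 KO, and Slc36a2 is highest in Bach2 KO and lowest in WT.

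Loss of Bach2 can also be read with Bach1 absent, as DKO against Bach1 KO, on arrays that the comparison of Bach2 KO with WT does not use. In DKO 51 members were higher and 42 lower than in Bach1 KO, while 10.9% of all features were higher and 15.3% lower. The members' shares were 20.5% and 16.9%, against 13.3% and 17.1% over the 13810 named genes. With no scaling the split was 58 higher and 23 lower, beside 2724 and 2007 of all features. Of the 56 members higher in Bach2 KO than in WT, 34 (60.7%) were also higher in DKO than in Bach1 KO, which is 66.7% of the 51. Of the 47 that were lower, 27 (57.4%) were also lower there, which is 64.3% of the 42. None passed in opposite directions. The same overlap was not counted over all features, so it is not read as particular to the members. Both comparisons also take their spread from the same limma fit. Members that were higher in both included Slc6a8, at 3.87 ± 0.52 (adjusted p = 0.000188) in DKO against Bach1 KO, Slc30a4, at 6.57 ± 0.62 (adjusted p = 1.29e-05) or 5.94 without Bach1 KO replicate 2, Slc11a1, at 4.51 ± 0.50 (adjusted p = 4.51e-05), and Slc2a1, at 1.91 ± 0.33 (adjusted p = 0.00138). Members that were lower in both included Slc6a4, at -7.44 ± 0.50 (adjusted p = 8.91e-07) or -8.13 without DKO replicate 1, Slc22a18, at -3.92 ± 0.31 (adjusted p = 2.95e-06), Slc29a1, at -1.83 ± 0.24 (adjusted p = 0.00015), and Slc43a2, at -2.11 ± 0.29 (adjusted p = 0.000225). In DKO against Bach1 KO, Slc36a2 stood at 0.99 ± 0.88 and did not pass, and Slc10a6 was above background on no array of either genotype on the probe used.

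**Figure D4:**
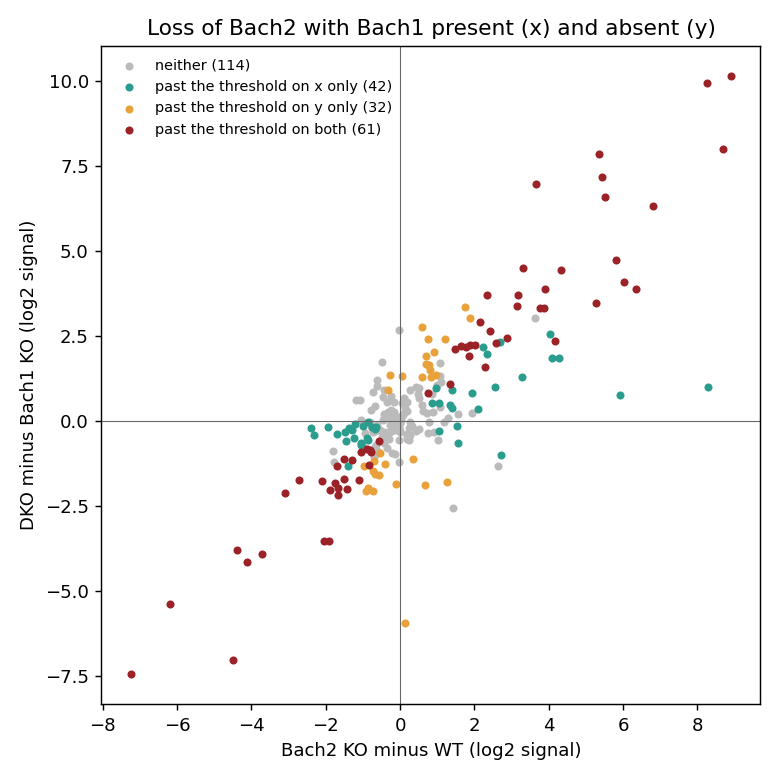
Each point is 1 of the 249 members, placed by the difference of Bach2 KO from WT (x axis, log2 signal) and of DKO from Bach1 KO (y axis, log2 signal), and colour marks which of them had an adjusted p under 0.05. The 61 points past the threshold on both lie in the upper right (34) and lower left (27), and Slc1a3 stands apart at the bottom near an x of 0.

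Carriers that do not bear the Slc symbol were counted beside the members. Of 45 such genes tested (the Slco, Mfsd, Sfxn, Spns and Flvcr families and single genes such as Mpc1 and Ucp2), 8 were higher and 7 lower in DKO than in WT, and 9 were higher and 10 lower in Bach2 KO. Over all features these shares were 10.6% higher and 16.6% lower in DKO and 12.4% higher and 24.7% lower in Bach2 KO. Flvcr1, a heme and choline exporter, was higher by 2.53 ± 0.31 in DKO (adjusted p = 9.92e-05) and by 2.41 ± 0.31 in Bach2 KO (adjusted p = 0.000163). Its relative Flvcr2 was lower, at -9.56 ± 0.46 in DKO (adjusted p = 7.77e-08) and -4.72 ± 0.46 in Bach2 KO (adjusted p = 2.06e-05), or -4.11 without Bach2 KO replicate 3. Slco2b1, an organic anion carrier, was lower, at -7.82 ± 0.33 in DKO (adjusted p = 3.3e-08) and -4.71 ± 0.33 in Bach2 KO (adjusted p = 1.75e-06). In both the interaction passed, at -4.62 ± 0.65 in Flvcr2 (adjusted p = 0.008) and -3.08 ± 0.47 in Slco2b1 (adjusted p = 0.0121). In Flvcr2 it was -5.23 without Bach2 KO replicate 3, and in the series matrix values neither passed (adjusted p = 0.1 and 0.0875). Mpc2, a subunit of the mitochondrial pyruvate carrier, was lower, at -1.11 ± 0.30 in DKO (adjusted p = 0.017) and -1.81 ± 0.30 in Bach2 KO (adjusted p = 0.0009), and its DKO call was lost without DKO replicates 1 or 2 or WT replicate 1 (-1.11 to -0.96) and under quantile normalization (-0.56) or without scaling (-0.68). Of the 3 partner proteins that take carriers to the membrane, Bsg was higher in DKO by 1.79 ± 0.52 (adjusted p = 0.0244) and Emb by 0.76 ± 0.21 (adjusted p = 0.0218). The call of Bsg was lost without DKO replicates 1 or 2 or WT replicates 1 or 3 (1.23 to 1.86), and it was 2.43 without WT replicate 2. That of Emb was lost without DKO replicates 2 or 3 or WT replicates 1 or 3 (0.63 to 0.76). None of the 3 passed in Bach2 KO in the limma fit, where Emb had an unadjusted p of 0.01995.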

How the data were processed

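RNA of flow-sorted alveolar macrophages from 12 female mice was labelled with Cy3 and hybridised to 1 one-colour Agilent array each, per the labels' protocols. The members and gene lists were chosen with earlier results of these data known. Per the file headers, Agilent Feature Extraction 10.7.3.1 made the deposited intensity values, with local background subtracted and spatial trends removed within an array. The submitters' processing notes name version 9.1. Flags for spots well above background, saturated or outlying are the scanner software's own values, per the file headers. The series matrix deposited by the authors holds log2 values of 20850 probes. Set against the scanner values (r of 0.99992 to 0.99997 per array over 20802 matched probes), it is scaled to each array's 75th percentile and centred on each probe's median. It served as an alternative.

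The processed intensity was scaled to the 75th percentile of each array and taken as log2, with no pseudocount. Outlier spots were dropped, replicate spots of a probe averaged, and 30878 of 55681 probes passed the background rule given with the members. Accessions named 26413 probes by 1 gene through RefSeq tables, and 29268 stayed unnamed. The brightest of the probes that passed stood for a gene, and a feature needed 2 values in each genotype. One limma 3.58.1 model (R 4.3.3) with 4 genotype means, 8 residual degrees of freedom and a trended prior was fitted to 23124 features. The same fit was also run on simulated data drawn with the means and spreads of these features. The numbers of mice limit the precision, and each array is labelled as an independent mouse. The members named in the text follow a rule: the largest differences and bounds per comparison, up to 8 members per substrate group by adjusted p, a list of well-known carriers, and the ATF4-responsive and lysosomal lists.

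Deviations from the genotype mean correlated between Bach2 KO and DKO arrays of the same number at 0.116, 0.123 and 0.118, and below 0.1 for at least 1 number in every other pair of genotypes. The largest value was also of the same number, WT replicate 2 with Bach1 KO replicate 2, at 0.385. Replicates 1 and 3 of these genotypes were at 0.04 and 0.044. WT replicate 2 with DKO replicate 2 was at 0.188, with 0.002 and 0.013 for replicates 1 and 3. Some arrays of unlike number also exceeded the Bach2 KO and DKO values, such as WT replicate 3 with Bach2 KO replicate 1, at 0.2. The labels do not say whether the numbers mark pairs. The main fit therefore used no pairing, and the replicate number as a block was an alternative. Alternatives covered scaling, background correction, filters on dim probes, probes per gene, the variance model, slide, replicate block, threshold, and leaving out each array. Since the files used here hold no mean signal, normexp was run on median signals, an alternative chosen after seeing the data, as was keeping outlier spots.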

Additional observations from a re-analysis of the deposited data

Results flagged for a closer look

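In 4 members the effect of losing Bach1 differed between mice without Bach2 and mice with it, by the limma interaction test over all features. The difference of DKO from Bach2 KO minus that of Bach1 KO from WT was -5.15 for Slc10a6, -6.06 for Slc1a3, -2.54 for Slc22a17 and -7.28 for Slc36a2, on the log2 scale. All DKO arrays and no others were on slide 3, and the part of the slide in these differences was not tested. Slc22a17 was above background on all 12 arrays. In Slc1a3 no DKO array was above background. In Slc10a6 no array outside Bach2 KO was above background on the probe tested. A second probe of Slc10a6, which did not pass the background rule, was above background on 1 Bach1 KO and 1 WT array. In Slc36a2 the WT arrays spanned -6.80 to -2.13.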

How the results depend on the processing

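Of 254 differences of named members that passed, 144 kept their direction and passed under every alternative run, 109 lost the test under at least 1, and 6 reversed. The reversals were Slc15a3 in Bach2 KO against WT (0.129 with quantile normalization, 0.118 without scaling), Slc25a5 (0.092 with quantile normalization), Slc25a11 (0.039) and Slc50a1 (0.013) without scaling, and, with each gene's probes averaged, Slc9a7 in Bach2 KO (0.153) and Slc16a10 in DKO (0.289). The cause was not tested, except that the last 2 have probes of opposite direction.

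Counts of members past the threshold moved by over 1.5 times as follows. A filter on all 12 arrays, which tests fewer genes, left 33 higher in Bach2 KO against WT, 29 higher in DKO against WT, 2 higher and 4 lower in DKO against Bach2 KO, and an interaction below 0 in 1. Without scaling, the lower counts were 14 in Bach2 KO and 18 in DKO against WT and 23 in DKO against Bach1 KO, Bach1 KO against WT had 1 higher, and DKO against Bach2 KO had 0 higher. Slide 1 alone, with fewer arrays, gave 25 lower in Bach2 KO against WT. At an adjusted p under 0.01 the lower counts were 27 in Bach2 KO against WT, 29 in DKO against WT, 26 in DKO against Bach1 KO and 4 in DKO against Bach2 KO, which had 0 higher. With array quality weights, Bach1 KO against WT had 2 higher, DKO against Bach2 KO had 21 higher and 23 lower, and the interaction was above 0 in 2 and below 0 in 8. Over all features these weights gave 19 higher in Bach1 KO against WT, and 1814 higher and 1798 lower in DKO against Bach2 KO. The interaction was then above 0 in 225 features and below 0 in 344. With normexp the interaction was above 0 in 1 member, beside 54 features. The 1 member higher in DKO than in Bach2 KO became 8 with normexp, 8 in the series matrix values, 3 with quantile normalization and 7 with those groups fitted alone, and 0 with no filter on dim probes, with each gene's probes averaged, without a trended prior, with slide as a random block, or with a minimum of 2-fold. The cause of these moves was not tested where none is given.

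Leaving out 1 array at a time gave 48 to 65 higher and 33 to 52 lower in Bach2 KO against WT, 41 to 59 higher and 34 to 48 lower in DKO against WT, 0 to 1 higher and 0 lower in Bach1 KO against WT, 0 to 4 higher and 4 to 13 lower in DKO against Bach2 KO, 39 to 60 higher and 28 to 45 lower in DKO against Bach1 KO, and an interaction above 0 in 0 and below 0 in 3 to 6. With the replicate number as a block the counts were 58 higher and 49 lower in Bach2 KO against WT and 1 higher and 10 lower in DKO against Bach2 KO. Of the named members in DKO against Bach2 KO, Slc38a1 alone lost its call under that block. The same block elsewhere gave 51 higher and 46 lower in DKO against WT and 54 higher and 42 lower in DKO against Bach1 KO. Signal over background limits the dim genes, whose differences are bounds.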
